A study of Mus musculus with 9 samples.

Results

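DNA replication and nucleotide supply were followed through 54 genes, chosen by name for their roles in copying DNA and in making its building blocks. They were matched by symbol and gene ID in both deposited tables, of 21936 genes for the tumour cells and 22060 for the macrophages, and all 54 were found in each. The genes were 13 of origin licensing, 8 of origin firing, 9 of polymerases and primase, 6 of the sliding clamp and its loader, 5 of single-strand binding and flap joining, 5 of nucleotide supply, 4 of control at the entry into S phase, and 4 of the fork checkpoint and chromatin assembly. RNA was sequenced from 9 samples of mouse cells of strain C57BL, with 1 library in each group. Lewis lung carcinoma (LLC) cells, a mouse lung tumour line, were either left untreated or kept for 24 h in medium conditioned for 16 h by bone-marrow-derived macrophages (BMDM). The macrophages were of 2 kinds, which the labels call GM-BMDM and M-BMDM, and gave their medium after 12 h with tunicamycin or with none, having been washed in between. Tunicamycin blocks N-linked glycosylation and so causes stress in the endoplasmic reticulum. Separate GM-BMDM and M-BMDM were sequenced untreated and after 4 h of tunicamycin. Medium from GM-BMDM and from M-BMDM is called GM medium and M medium here. The feeding of untreated LLC cells is not given in the sources used here, so that macrophage products and any other difference between the media cannot be told apart in comparisons with that library.

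Before S phase the origin recognition complex (Orc genes), Cdc6 and Cdt1 load the Mcm2 to Mcm7 helicase onto DNA, and geminin (Gmnn) holds Cdt1 back afterwards. The kinase Cdc7 with its activator Dbf4, together with Mcm10, Cdc45 and the GINS complex, turns the loaded helicase into a moving fork, on which polymerases alpha, delta and epsilon copy the strands with the clamp Pcna. Many of these genes are targets of E2F transcription factors, which cyclin E helps to release from the retinoblastoma protein, and the dNTPs come largely from ribonucleotide reductase (Rrm1 and Rrm2) and thymidylate synthase (Tyms).

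The choice of genes did not use the sequence around their start sites. RefSeq promoter windows of 300 bases (250 before to 50 after a start, build GRCm38.p6) were found for 45 of the 54 genes. An E2F-type motif (TTTCCCGC, TTTCGCGC, TTTGCCGC or TTTGGCGC, either strand) stood in a window of 18 of these 45 genes (40.0%), against 704 of 27025 genes with a window (2.60%) and 2.26% of all windows. The CCAAT box (CCAAT, either strand) stood in 60.0% of the replication genes and 41.1% of all genes, and the cell cycle homology region (TTTGAA or TTCGAA, either strand) in 22.2% and 21.7%. Of 20 mitosis genes listed for comparison 16 had a window, of which 6.25% held the E2F letters, 87.5% CCAAT and 75% the homology region. Matches of different motifs may overlap. A match is a run of letters and not a shown binding site. The windows printed belong to Cdc6 and Pole2, the genes with the largest increase in LLC cells, to the helicase gene Mcm5, to Rrm2, the gene with the largest difference between macrophage kinds, which held no E2F match, and to Gins3, the gene that fell in LLC cells and held a match. They are written 5′ to 3′ along the gene's strand, with E2F matches in capitals, and those of Mcm5 are 2 overlapping matches. They lie at chr11:98907901-98908200 on the plus strand (Cdc6, inside the annotated gene), chr12:69228141-69228440 on the minus strand (Pole2), chr8:75109259-75109558 (Mcm5), chr12:24708004-24708303 (Rrm2) and chr8:95633309-95633608 (Gins3), the last 3 on the plus strand.
Cdc6: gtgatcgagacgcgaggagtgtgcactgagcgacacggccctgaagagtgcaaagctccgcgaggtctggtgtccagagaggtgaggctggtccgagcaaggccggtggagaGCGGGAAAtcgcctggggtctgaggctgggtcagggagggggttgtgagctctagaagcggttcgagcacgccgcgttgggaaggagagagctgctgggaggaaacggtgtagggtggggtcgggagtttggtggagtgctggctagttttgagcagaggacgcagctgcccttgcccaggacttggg
Pole2: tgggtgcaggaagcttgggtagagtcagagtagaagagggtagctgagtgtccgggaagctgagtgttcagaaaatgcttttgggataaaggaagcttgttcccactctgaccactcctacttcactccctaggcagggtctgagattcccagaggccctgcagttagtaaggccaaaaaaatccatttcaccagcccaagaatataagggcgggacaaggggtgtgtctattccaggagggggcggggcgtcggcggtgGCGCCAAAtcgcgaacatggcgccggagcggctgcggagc
Mcm5: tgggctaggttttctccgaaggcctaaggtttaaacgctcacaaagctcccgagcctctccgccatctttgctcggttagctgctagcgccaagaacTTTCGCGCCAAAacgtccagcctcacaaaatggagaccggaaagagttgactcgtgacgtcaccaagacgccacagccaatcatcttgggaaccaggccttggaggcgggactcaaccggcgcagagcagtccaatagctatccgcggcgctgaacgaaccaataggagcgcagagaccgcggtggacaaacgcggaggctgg
Rrm2: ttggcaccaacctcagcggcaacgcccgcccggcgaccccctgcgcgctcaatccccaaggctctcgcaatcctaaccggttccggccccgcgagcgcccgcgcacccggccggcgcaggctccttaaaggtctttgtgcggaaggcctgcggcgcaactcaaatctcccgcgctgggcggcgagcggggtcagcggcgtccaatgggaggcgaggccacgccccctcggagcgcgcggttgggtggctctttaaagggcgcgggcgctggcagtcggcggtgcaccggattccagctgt
Gins3: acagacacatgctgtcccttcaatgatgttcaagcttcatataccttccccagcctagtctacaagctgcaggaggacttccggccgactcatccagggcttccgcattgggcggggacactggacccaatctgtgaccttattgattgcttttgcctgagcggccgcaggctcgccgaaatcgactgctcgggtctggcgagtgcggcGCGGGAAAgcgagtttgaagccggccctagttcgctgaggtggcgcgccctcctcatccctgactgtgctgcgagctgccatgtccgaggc

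Assigned reads numbered 15020068 to 17128471 per LLC library and 37695079 to 42751176 per BMDM library. Levels are given as CPM, read counts scaled to a common library size by TMM (trimmed mean of M-values), and are compared only within a table. Folds are ratios of CPM with exact 95% intervals, which cover counting error only, since no group had replicates and reads are not independent molecules. In 2-library comparisons, differences are in log2(CPM + 1), which understates the change of low genes. The additive models used edgeR's quasi-likelihood test over all genes with a mean of at least 1 CPM (11190 in LLC, 11049 in BMDM), leaving 1 residual degree of freedom. That residual is the difference between the tunicamycin responses of the 2 kinds of macrophage or medium. Their p-values reflect no more than this scatter among single libraries and measure no variation between replicates. Macrophage transcripts were few in LLC cells: of 10 macrophage markers 4 to 5 had 0 counts in each library, among them Adgre1, Itgam, Tyrobp and Ptprc in all 5, and the summed level was 26.6 to 40.7 CPM, highest in untreated cells. Of 6 epithelial markers only Krt8 and Krt18 reached 1 CPM in LLC cells, and the 6 summed to 364 to 526 CPM. Krt19 had 0 counts in all 5 libraries and Epcam and Cdh1 were at 0.20 CPM or less. The 6 fibroblast and mesenchymal markers summed to 3026 to 4547 CPM, and 3 to 5 of them reached 1 CPM, depending on the library. All 10 macrophage markers were above 1 CPM in all 4 BMDM libraries.

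The replication genes took a larger share of the LLC transcriptome in every macrophage medium than without it. Together they made up 0.406% of counts in untreated LLC cells, 0.637% with GM medium and 0.622% with M medium from macrophages kept without tunicamycin, and 0.651% and 0.657% with the corresponding media after tunicamycin. Of the 54 genes 53 passed the minimum level, and 51 of these were lower in the untreated library than in each of the 4 media, an order found for 36.4% of all genes tested. Gins3 and Cdc7 had the opposite order, which 32.2% of all genes had. The 4 comparisons with untreated cells share that 1 library. At least 1.5-fold higher were 29 genes with GM medium and 26 with M medium (6.68% and 4.95% of all genes), and 32 and 30 after tunicamycin (7.36% and 6.87%). At least 2-fold higher were 3, 2, 5 and 5 in the same order (1.04%, 0.500%, 1.48% and 1.22% of all genes), and no replication gene was 1.5-fold lower in any medium (7.22%, 5.28%, 8.44% and 8.26% of all genes were). The plot of LLC differences by gene shows how closely the 4 media followed each other.

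**Figure D1:**
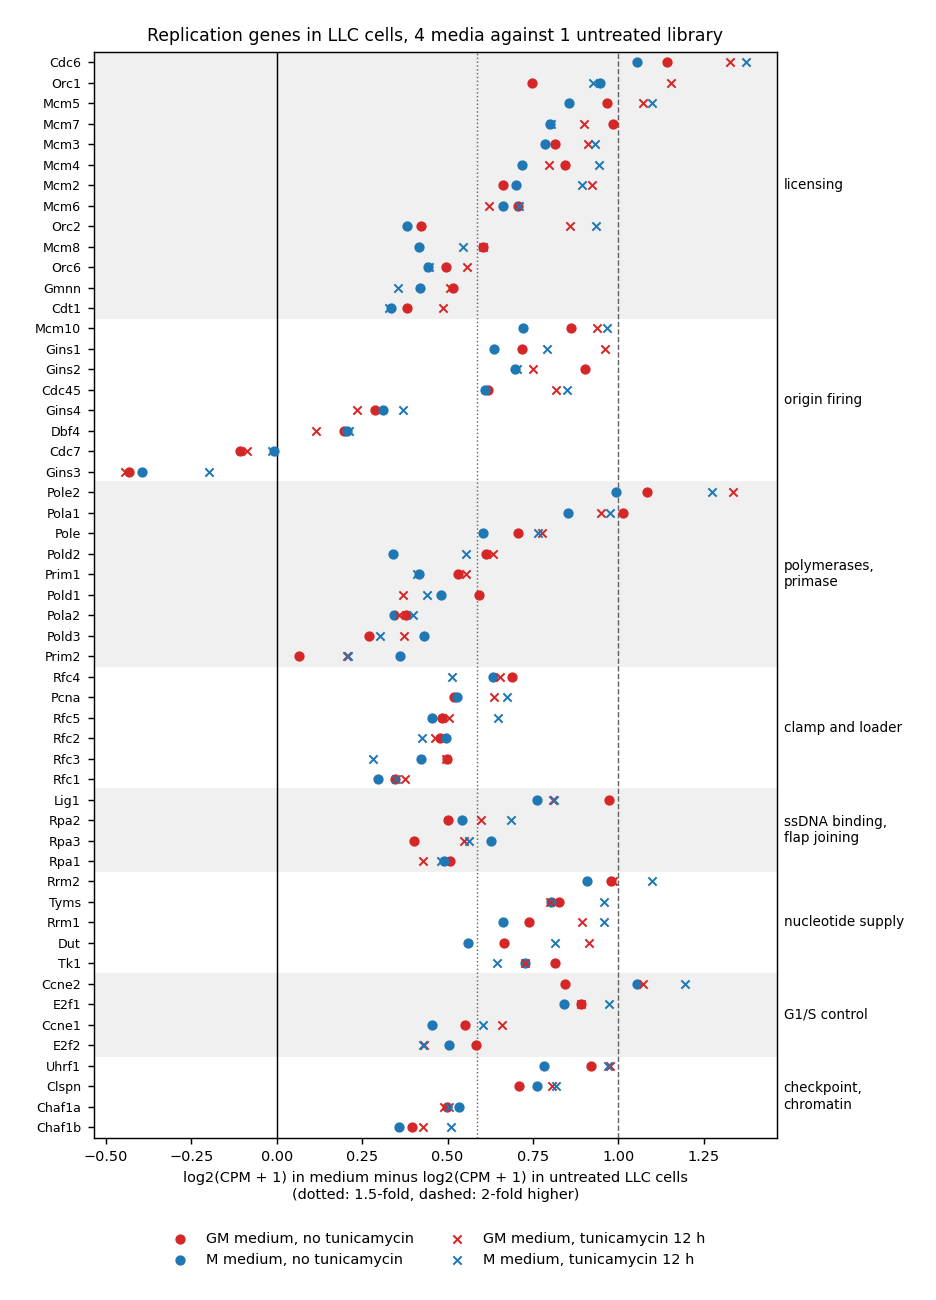
Difference in log2(CPM + 1) between each of 4 macrophage media and the single untreated LLC library, for the 53 replication genes that passed the minimum level, grouped by role. Points are libraries (circles: macrophages without tunicamycin; crosses: after 12 h; red: GM, blue: M medium); nearly all lie right of 0, with Gins3 and Cdc7 left of it, and the dotted and dashed lines mark 1.5-fold and 2-fold.

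A fit over the 5 LLC libraries, with the kind of medium and its tunicamycin as terms, compared the mean of the media with untreated cells. By edgeR's quasi-likelihood test (Benjamini-Hochberg adjusted) 51 of 53 replication genes rose, Gins3 fell and Cdc7 did not pass, where 24.9% of all genes rose and 21.9% fell. The median log2 fold change was 0.64 for the replication genes and 0.02 for all genes tested. The spread was small (coefficient of variation 4.3%) and was taken from the trend over genes (infinite prior degrees of freedom), which underlies the very small p-values. It came from the media libraries alone, because the single untreated library was fitted exactly. That library was assumed to vary like the media libraries, and its own variation was not measured. DESeq2 called 42 of the 53 higher and none lower (10.2% and 7.97% of all genes), without Ccne1, Chaf1b, Dbf4, E2f2, Gins3, Gins4, Mcm8, Pold3, Prim2 and Rfc3. A fit without terms for kind or tunicamycin called 45 higher and none lower (7.56% and 6.89% of all genes), and without 1 medium at a time it called 30 (without GM medium), 46 (without M medium), 30 (without GM medium after tunicamycin) and 29 (without M medium after tunicamycin).

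All 13 licensing genes rose in LLC cells, with a median log2 fold change of 0.80. Cdc6, the loader of the helicase, stood at 26.7 CPM in untreated cells, at 60.2 with GM medium and 56.6 with M medium, and at 68.6 and 70.8 CPM with the corresponding media after tunicamycin. Every medium lay above the untreated library, by 2.25-fold (2.0 to 2.54), 2.12-fold (1.88 to 2.39), 2.57-fold (2.29 to 2.88) and 2.65-fold (2.37 to 2.97), and the fitted log2 fold change was 1.26 ± 0.10 (SE). Orc1, the largest subunit of the origin recognition complex, went in the same order from 6.72 CPM to 12.0, 13.9, 16.2 and 13.7 CPM (1.05 ± 0.19). Orc2, a subunit of the same complex, stood at 72.1 CPM untreated, at 96.9 and 94.2 CPM with the media made without tunicamycin, and at 131 and 139 CPM with those made after it. The helicase subunit Mcm5 was at 108 CPM in untreated cells and at 211, 196, 228 and 232 CPM in the media (1.01 ± 0.07). Fitted log2 fold changes of the 6 subunits Mcm2 to Mcm7 lay between 0.68 (Mcm6) and 1.01 (Mcm5), so that the transcripts of all 6 rose, and their adjusted p ran from 3.74e-42 (Mcm5) to 1.49e-23 (Mcm6) in edgeR's quasi-likelihood test (Benjamini-Hochberg adjusted). Cdt1 was at 96.9 CPM untreated and 127, 123, 136 and 122 CPM in the media, and its inhibitor Gmnn at 42.4 CPM untreated and 60.9, 57.0, 60.6 and 54.4 CPM. Both rose, with log2 fold changes of 0.39 ± 0.07 and 0.46 ± 0.09, and Cdt1 had the smallest increase among licensing genes. Orc6 (0.49) and Mcm8 (0.56), a helicase paralog of recombination repair, rose somewhat more than these.

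The origin firing genes were the only role that split. Of 8, Mcm10, Cdc45, Gins1, Gins2, Gins4 and Dbf4 rose, Gins3 fell and Cdc7 did not pass. Mcm10, which helps to activate the helicase, had 51.7 CPM in untreated cells and 94.7, 85.9, 99.9 and 102 CPM in the media (log2 fold change 0.88 ± 0.08). The GINS complex holds its 4 subunits in equal number, and their transcripts did not move together. Gins2 went from 15.8 CPM to 30.4, 26.3, 27.3 and 26.4 CPM (0.80 ± 0.13), and Gins1 rose by a similar amount (0.84 ± 0.17). Gins4 went from 32.2 CPM to 39.6, 40.2, 38.1 and 41.9 CPM (0.31 ± 0.11). Gins3 was highest in untreated cells, with 43.1 CPM against 31.7, 32.6, 31.4 and 37.5 CPM. In the first 3 media it was 1.36-fold (1.21 to 1.53), 1.32-fold (1.18 to 1.49) and 1.37-fold (1.22 to 1.55) lower, and in M medium after tunicamycin the interval was 1.03-fold to 1.29-fold lower. Its fitted log2 fold change was -0.38 ± 0.10, with an adjusted p of 9.37e-04 by edgeR's quasi-likelihood test (Benjamini-Hochberg adjusted) and of 0.192 by DESeq2. The kinase Cdc7 was nearly level, at 34.0 CPM untreated and 31.4, 33.8, 31.9 and 33.6 CPM in the media, with all 4 intervals reaching across 1 (1.08-fold lower, 0.953 to 1.23, with GM medium). Its activator Dbf4 rose slightly, from 139 CPM to values between 151 and 161 CPM (0.18 ± 0.07).

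All 9 polymerase and primase genes rose, over a wide range. Pole2, the second subunit of the leading-strand polymerase epsilon, had 23.7 CPM in untreated cells and 51.3, 48.2, 61.4 and 58.7 CPM in the media. These are 2.16-fold (1.91 to 2.46), 2.03-fold (1.79 to 2.31), 2.59-fold (2.29 to 2.93) and 2.48-fold (2.19 to 2.80) higher, and the fitted log2 fold change of 1.20 ± 0.10 was next to that of Cdc6. The catalytic subunit Pole rose by 0.72 ± 0.08. Pola1, the catalytic subunit of polymerase alpha, which starts each strand with primase, went from 78.4 CPM to 159, 143, 152 and 155 CPM (0.96 ± 0.07), while its partner Pola2 rose by 0.37 ± 0.07. The primase subunit Prim1 rose by 0.48 ± 0.07, and Prim2 had the smallest increase, from 45.6 CPM to 47.8, 58.8, 52.7 and 52.8 CPM (0.22 ± 0.09; adjusted p of 0.0397 by edgeR's quasi-likelihood test (Benjamini-Hochberg adjusted)). Of the subunits of the lagging-strand polymerase delta, Pold1, Pold2 and Pold3 rose by 0.48, 0.54 and 0.35.

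All 6 genes of the clamp and its loader rose, with log2 fold changes between 0.34 (Rfc1) and 0.64 (Rfc4). Pcna, the ring that tethers polymerases to DNA, stood at 208 CPM untreated and 299, 301, 324 and 333 CPM in the media (0.59 ± 0.07). Rfc4, a small subunit of the loader, stood at 26.1 CPM and 42.7, 41.0, 41.6 and 37.7 CPM (0.64 ± 0.11). Of the genes of single-strand binding and flap joining, DNA ligase Lig1 went from 66.1 CPM to 131, 113, 116 and 117 CPM (0.85 ± 0.08), and the 3 subunits of replication protein A, Rpa1, Rpa2 and Rpa3, rose by 0.48, 0.59 and 0.55. The flap nuclease Fen1, needed to join lagging-strand fragments, had 0.395 to 0.910 CPM in the 5 LLC libraries and did not pass the minimum level. It was at 22.0 to 67.3 CPM in macrophages. An antisense gene, Gm10143, covers 78.8% of the exon bases of Fen1 and is listed in neither table, and the part of the counting rules in the low LLC values was not tested.

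All 5 nucleotide supply genes rose, with a median of 0.82. Rrm2, the S-phase subunit of ribonucleotide reductase, stood at 214 CPM in untreated cells and 423, 403, 425 and 460.2 CPM in the media. The increase was 1.0 ± 0.07 on the log2 scale, and the adjusted p of 4.22e-47 by edgeR's quasi-likelihood test (Benjamini-Hochberg adjusted) was the smallest among the replication genes. Its partner Rrm1 stood at 120.0 CPM untreated and 201, 190.4, 224 and 234 CPM (0.82 ± 0.07). Tyms, which makes dTMP, went from 31.6 CPM to 56.9, 55.9, 55.7 and 62.4 CPM (0.87 ± 0.10). The salvage kinase Tk1 and the dUTP-removing enzyme Dut rose by 0.74 and 0.74. Per length, Rrm2 was among the most abundant of the 54 transcripts, with 78.2 FPKM in untreated cells beside 87.7 for Pcna and 71.2 for Mcm3, and with 147 to 164 FPKM in the media it lay above both.

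The 4 genes of S-phase entry all rose in LLC cells. Cyclin E2 (Ccne2) stood at 17.9 CPM untreated and at 32.9, 38.3, 38.7 and 42.3 CPM in the media (log2 fold change 1.08 ± 0.12), and cyclin E1 (Ccne1) stood at 17.9 CPM untreated and 26.6, 24.8, 28.8 and 27.6 CPM in the media (0.59 ± 0.13). The activator E2f1 went from 36.1 CPM to 67.7, 65.5, 67.7 and 71.9 CPM (0.92 ± 0.09), and E2f2 from 24.4 CPM to 37.1, 35.1, 33.3 and 33.2 CPM (0.50 ± 0.12). For each of these 4 genes all media lay above the untreated library. Of the fork checkpoint and chromatin genes, Uhrf1, which recruits the maintenance DNA methyltransferase to new DNA, went from 165 CPM to 312, 284, 325 and 323 CPM (0.92 ± 0.07). Claspin (Clspn), the mediator between stalled forks and the kinase Chek1, rose by 0.78 ± 0.08, and the subunits of chromatin assembly factor, Chaf1a and Chaf1b, by 0.51 and 0.43.

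Several replication genes share exon bases with a gene on the opposite strand, and the strand setting of the counting was not given, so that reads of such pairs cannot be told apart. For Ccne2 17.4% of exon bases overlap Ints8, which stood at 38.8 CPM untreated and 59.0, 61.2, 57.9 and 63.2 CPM in the media. For Orc2 29.8% overlap Nif3l1, with 30.4 CPM untreated and 42.6, 34.8, 47.0 and 46.4 CPM. Gins2 (67.3%, Gse1), Chaf1a (52.5%, Ubxn6) and Rfc4 (12.7%, Eif4a2) overlap genes that were not higher in all media: Gse1 lay between 50.7 and 63.1 CPM, Ubxn6 between 9.75 and 14.4 CPM, and Eif4a2 at 519.6 CPM untreated and 323 to 358 CPM in the media.

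Tunicamycin in the macrophages before they gave their medium went with a small further increase of some replication genes in LLC cells. In the fit over 5 libraries 8 of 53 rose and none fell, where 12.5% of all genes rose and 10.9% fell, which is near the background. The median log2 fold change was 0.07 for the replication genes and -0.003 for all genes. The 8 genes were Orc2, Cdc6, Mcm2, Mcm5, Cdc45, Pole2, Rrm1 and Dut. For Orc2 (values above) the increase was 0.50 ± 0.06, with an adjusted p of 1.13e-13 by edgeR's quasi-likelihood test (Benjamini-Hochberg adjusted) and of 5.23e-04 by DESeq2. Orc2 was 1.36-fold higher (1.27 to 1.45) with GM medium and 1.47-fold higher (1.38 to 1.57) with M medium after tunicamycin than without. The other 7 rose by 0.18 (Mcm5) to 0.27 (Pole2), and DESeq2, which called 2.65% of all genes higher and 1.53% lower, called none of them. Between media of the same kind no replication gene was 1.5-fold apart (with GM medium 1.49% of all genes were higher after tunicamycin and 2.16% lower, with M medium 1.94% and 2.79%). Dut, for example, stood at 162 and 151 CPM without and at 193 and 179.9 CPM after tunicamycin, Mcm2 at 182 and 186 against 218 and 213 CPM, and Rrm1 at 201 and 190.4 against 224 and 234 CPM. The mitosis genes of the same libraries had no member that rose and 7 of 20 that fell, among them Ccnb2 (-0.37 ± 0.06) and Mki67 (-0.20 ± 0.05).

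The kind of macrophage behind the medium passed for no replication gene. edgeR's quasi-likelihood test called 0 of 53 in either direction (2.21% of all genes higher with GM medium, 2.32% lower). DESeq2 called 0 (0.116% and 0.179% of all genes). It gave no adjusted p to replication genes of lower count, such as Cdc6, Ccne2 and E2f1, so that these could not be called. The lowest adjusted p by edgeR's quasi-likelihood test (Benjamini-Hochberg adjusted) was 0.0894, for Pold2, which was 0.17 ± 0.06 higher with GM medium on the log2 scale. Between GM and M medium no replication gene differed by 1.5-fold (of all genes 0.903% were that much higher with GM medium and 1.01% lower, and after tunicamycin 0.903% and 0.572%). The differences lay between -0.29 (Prim2) and 0.27 (Pold2) on the log2(CPM + 1) scale without tunicamycin, and between -0.25 (Gins3) and 0.23 (Orc1) after it.

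The replication genes also separated the 2 kinds of macrophage. Their share of counts was 0.175% in GM-BMDM and 0.101% in M-BMDM without tunicamycin, and 0.166% and 0.102% with it. Both GM-BMDM libraries lay above both M-BMDM libraries in 47 of 54 genes (36.3% of all genes), and below in Pold3 and Rfc3 (40.0% of all genes had that order). By edgeR's quasi-likelihood test (Benjamini-Hochberg adjusted) 41 of 54 were higher in GM-BMDM and none lower, where 25.4% of all genes were higher and 25.0% lower. The median log2 fold change was 1.03 for the replication genes and -0.04 for all genes, and DESeq2 called 35 higher and none lower (22.2% and 20.1% of all genes), without Cdt1, Gins3, Mcm8, Rfc1, Rpa1 and Rpa2. In untreated cells 27 genes were at least 2-fold and 35 at least 1.5-fold higher in GM-BMDM (12.4% and 18.9% of all genes), and after tunicamycin 23 and 32 were (12.6% and 19.9%). None was 1.5-fold lower in either comparison (15.5% and 17.5% of all genes were). In bulk RNA a larger share of cycling cells and more RNA per cell cannot be told apart.

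**Figure D2:**
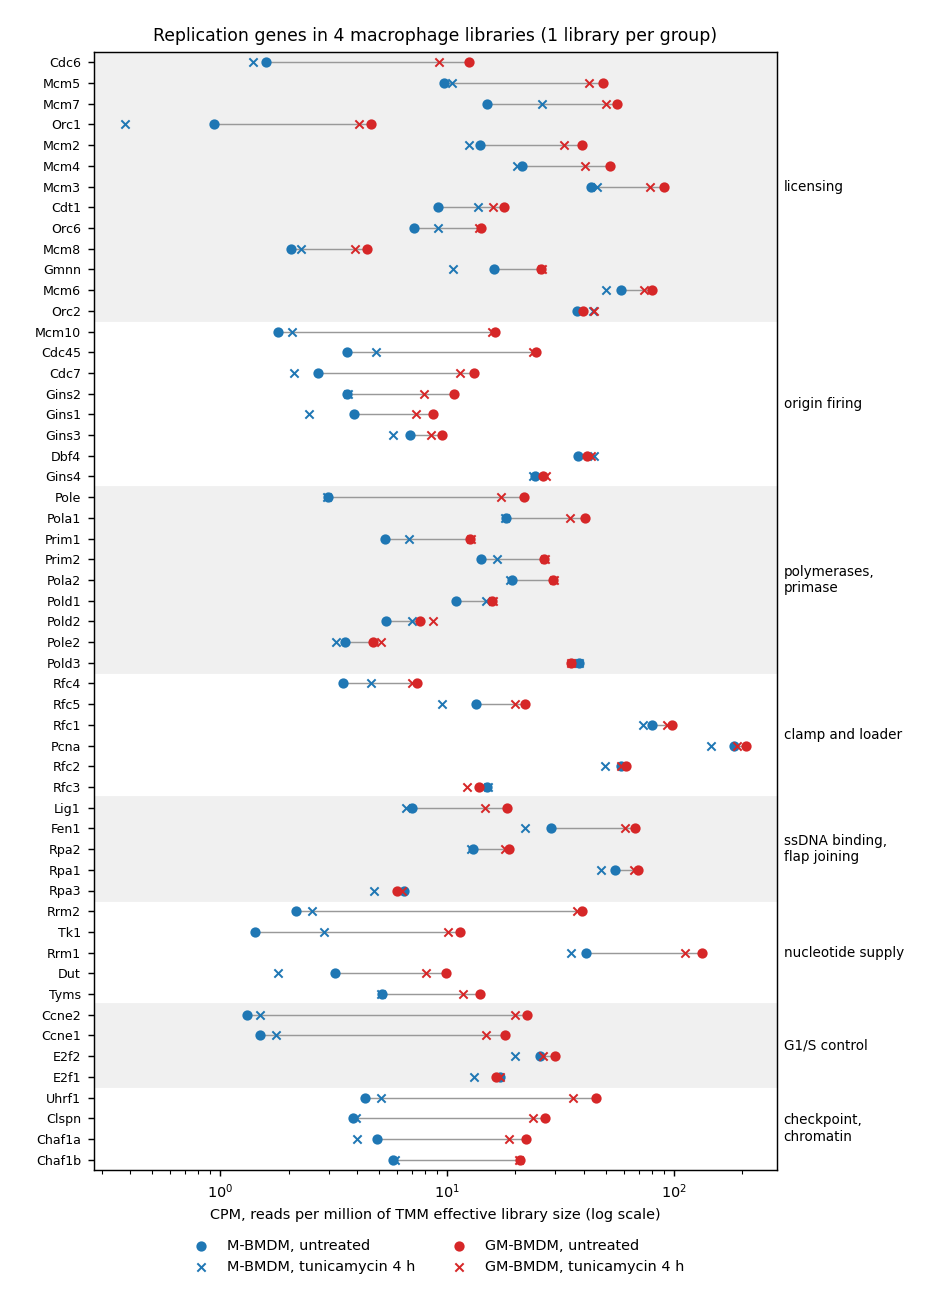
CPM on a log axis of all 54 replication genes in the 4 macrophage libraries, grouped by role, with a grey line joining the untreated libraries of the 2 kinds. Red (GM-BMDM) lies right of blue (M-BMDM) by a wide gap in Rrm2, Ccne2, Ccne1, Uhrf1 and Mcm10, and the colours meet in Pcna, Rfc2, Rfc3, Pold3, Orc2, Dbf4 and E2f1; crosses mark 4 h of tunicamycin.

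The 3 genes with the widest gaps between the kinds were Rrm2, Ccne2 and Ccne1, while by role the fork checkpoint and chromatin genes had the highest median log2 fold change (2.45), before nucleotide supply (1.88) and S-phase entry (1.82). Rrm2 had 2.15 and 2.54 CPM in M-BMDM without and with tunicamycin and 39.3 and 37.4 CPM in GM-BMDM, 18.3-fold apart in untreated cells (14.6 to 23.2; fitted log2 fold change 4.03 ± 0.16). Rrm1 had 41.0 and 35.3 CPM against 133 and 111 CPM, 3.24-fold apart (3.06 to 3.43). The reductase subunits therefore differed in how unequal they were between the kinds: per length, Rrm1 to Rrm2 was 3.68 to 0.766 FPKM in untreated M-BMDM and 11.5 to 13.6 FPKM in untreated GM-BMDM. The deposited lengths are 11012 bases for Rrm1 and 2771 for Rrm2. The ratio within a kind depends on these lengths, and its change between the kinds does not. Tk1 had 1.42 and 2.87 CPM against 11.4 and 10.1 CPM, and Tyms and Dut passed as well (1.32 ± 0.16 and 1.88 ± 0.21). Ccne2 had 1.32 and 1.49 CPM in M-BMDM and 22.4 and 20.0 CPM in GM-BMDM (3.91 ± 0.18), and Ccne1 1.5 and 1.75 CPM against 18.0 and 14.9 CPM (3.32 ± 0.20). Ints8, on the strand opposite Ccne2, did not have that order, with 40.2 and 44.1 CPM in M-BMDM and 35.4 and 34.3 CPM in GM-BMDM. E2f1 and E2f2 did not pass: E2f1 had 17.1 and 13.2 CPM in M-BMDM and 16.4 and 17.2 CPM in GM-BMDM (0.16 ± 0.15), and E2f2 25.7 and 20.0 CPM against 30.0 and 26.5 CPM (0.31 ± 0.13).

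Of the licensing genes 12 of 13 were higher in GM-BMDM. Cdc6 had 1.58 and 1.40 CPM in M-BMDM against 12.4 and 9.17 CPM in GM-BMDM, 7.86-fold apart untreated (5.99 to 10.5). Mcm5 had 9.71 and 10.5 CPM against 48.8 and 42.1 CPM (2.17 ± 0.14), the largest gap among the helicase subunits, and Mcm6 the smallest, with 58.2 and 50.03 CPM against 80.0 and 73.5 CPM (0.51 ± 0.11). Orc1 had 0.939 and 0.379 CPM against 4.62 and 4.10 CPM (2.78 ± 0.35), whereas Orc2 lay at 37.3 and 44.0 CPM against 39.8 and 44.6 CPM and did not pass (0.05 ± 0.12). Among firing genes the kinase pair was split: Cdc7 had 2.68 and 2.11 CPM against 13.1 and 11.4 CPM (2.36 ± 0.18), and Dbf4 37.6 and 44.2 CPM against 41.4 and 43.0 CPM (0.05 ± 0.12). Mcm10 (3.05 ± 0.17) and Cdc45 (2.52 ± 0.17) had the largest gaps of this role. In the GINS complex Gins1 (1.35), Gins2 (1.34) and Gins3 (0.51) were higher in GM-BMDM and Gins4 did not pass (0.16 ± 0.12).

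Polymerase subunits differed from each other in the same way. Pole, the catalytic subunit of polymerase epsilon, had 2.98 and 2.96 CPM in M-BMDM and 21.8 and 17.2 CPM in GM-BMDM, 7.30-fold apart untreated (5.99 to 8.98), and its partner Pole2 3.54 and 3.25 CPM against 4.72 and 5.11 CPM, which did not pass (0.54 ± 0.21). Pola1, Pola2, Prim1 and Prim2 were higher (0.62 to 1.08), and none of the polymerase delta genes Pold1, Pold2 and Pold3 passed, with Pold3 at 38.0 and 38.2 CPM against 35.05 and 35.2 CPM. Of the clamp and loader genes Rfc1, Rfc4 and Rfc5 passed, of which Rfc4 had 3.46 and 4.6 CPM in M-BMDM and 7.33 and 7.0 CPM in GM-BMDM (0.84 ± 0.20). Pcna, per length the most abundant of the 54 in all 4 libraries (64.8 to 82.5 FPKM), had 184 and 146 CPM against 207 and 189.7 CPM and did not pass (0.27 ± 0.12; adjusted p of 0.0955 by edgeR's quasi-likelihood test (Benjamini-Hochberg adjusted)). Rfc5 shares 10.7% of its exon bases with the opposite-strand gene Wsb2, which stood at 103 and 76.8 CPM against 224 and 212 CPM. Fen1 had 28.7 and 22.0 CPM in M-BMDM against 67.3 and 60.8 CPM in GM-BMDM, 2.35-fold apart untreated (2.19 to 2.52), and Lig1 was 2.63-fold higher (2.28 to 3.04). Rpa1 and Rpa2 passed (0.40 and 0.51) and Rpa3 did not. All 4 fork checkpoint and chromatin genes passed, led by Uhrf1 with 4.35 and 5.12 CPM against 45.4 and 35.8 CPM (3.09 ± 0.18) and Clspn with 3.84 and 3.96 CPM against 26.9 and 24.0 CPM (2.70 ± 0.15).

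Markers of other bone marrow cells moved with the kind of macrophage, and so did some markers of macrophages themselves. The 12 neutrophil and granulocyte precursor markers summed to 1685 and 1610 CPM in GM-BMDM without and with tunicamycin and to 50.7 and 32.1 CPM in M-BMDM, the 6 stem and progenitor markers to 73.7 and 57.0 against 3.65 and 5.07 CPM, and the 7 mast cell, basophil and eosinophil markers to 106 and 84.3 against 1.07 and 0.92 CPM. At least 1 CPM was reached in untreated GM-BMDM by 10 of 12, 5 of 6 and 4 of 7 of them, and in untreated M-BMDM by 3, 1 and 0. Of the 7 mast cell, basophil and eosinophil markers 3 passed the minimum level, and their gaps were uneven. In untreated cells the gap was 5.88 for Siglecf on the log2(CPM + 1) scale, with a median of 2.26 and a lowest of 2.09 (Cpa3). The sum of that list therefore does not stand for its members alike. The 10 macrophage markers summed to 39955 and 37769 CPM in GM-BMDM and 52112 and 32795 CPM in M-BMDM. Their sum was therefore lower in GM-BMDM without tunicamycin and higher with it. In untreated GM-BMDM 4 of them were at least 2-fold lower, Adgre1 with 469.9 against 3163 CPM the most, and 1 was at least 2-fold higher (Itgam). Of all 11049 genes compared 776 were that much lower and 1371 that much higher. Of the 6 epithelial markers only Cdh1 reached 1 CPM in untreated GM-BMDM, with 73.5 of a summed 74.0 CPM, and 2 had 0 counts. In untreated M-BMDM Cdh1 stood at 0.027 CPM (1 read), and none of the 6 reached 1 CPM. The 6 mitochondrial mRNAs summed to 18894 and 15580 CPM in GM-BMDM and 8895 and 7913 CPM in M-BMDM. The part of these markers and the cells they mark in the replication gene differences was not tested.

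Tunicamycin for 4 h passed for no replication gene in macrophages. edgeR's quasi-likelihood test called 0 of 54, with 1 at an unadjusted p under 0.05 (Dut), and 0.00% of all genes in either direction, with 1103 genes at an unadjusted p under 0.05. DESeq2 called 0 of 54 (0.199% of all genes higher, 0.244% lower). Both fits were additive, so a gene that responded in 1 kind only had a larger error and was harder to call. In GM-BMDM 41 of 54 genes were lower with tunicamycin, as were 49.7% of all genes, and by little: the median was -0.14 on the log2(CPM + 1) scale against 0.001 for all genes, the lowest were Cdc6 (-0.40; 12.4 to 9.17 CPM) and Gins2 (-0.39; 10.7 to 7.89 CPM), and none reached 1.5-fold (0.326% of all genes did upward and 1.63% downward). In M-BMDM 25 genes were above and 29 below 0 (50.8% and 49.1% of all genes). The median was -0.01 and became 0.08 with total counts in place of TMM. On the log2(CPM + 1) scale 2 genes were at least 1.5-fold higher (3.90% of all genes) and none lower (3.02%). The 2 were Mcm7, with 14.9 CPM untreated and 26.2 CPM with tunicamycin (1.75-fold, 1.58 to 1.94), and Tk1, with 1.42 and 2.87 CPM (2.02-fold, 1.45 to 2.84). Cdt1 was 1.5-fold higher (1.31 to 1.72; 9.07 to 13.6 CPM), and its inhibitor Gmnn 1.51-fold lower (1.34 to 1.71; 16.02 to 10.6 CPM), both just inside 1.5-fold once 1 CPM is added. Dut was 1.77-fold lower (1.32 to 2.40; 3.19 to 1.80 CPM). Gins1 went from 3.891 to 2.465 CPM, and Orc1 from 0.939 to 0.379 CPM (35 and 16 reads). For such low genes the added 1 CPM shrinks the difference, so that none counted as 1.5-fold lower.

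Replication and mitosis genes stood in a different order in the LLC comparison with medium and in the comparison of macrophage kinds. These comparisons are unlike, and whether the order belongs to the cells or to the comparison was not tested. In LLC cells the media went with a median log2 fold change of 0.64 in replication genes and 0.30 in 20 mitosis genes, of which 15 rose, with Birc5 highest (0.53 ± 0.07), and 1 fell (Cenpf, -0.20 ± 0.06), beside 24.9% and 21.9% of all genes. The proliferation marker Mki67 did not pass (0.01 ± 0.06), with 721 CPM untreated and 789, 764, 644 and 705 CPM in the media. Between macrophage kinds the medians were 1.03 for replication and 3.26 for mitosis genes, of which 20 of 20 were higher in GM-BMDM (25.4% of all genes), among them Ccna2 (4.27 ± 0.20) and Mki67 (1.81 ± 0.24). The plot of both lists in 7 comparisons shows this exchange of order.

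**Figure D3:**
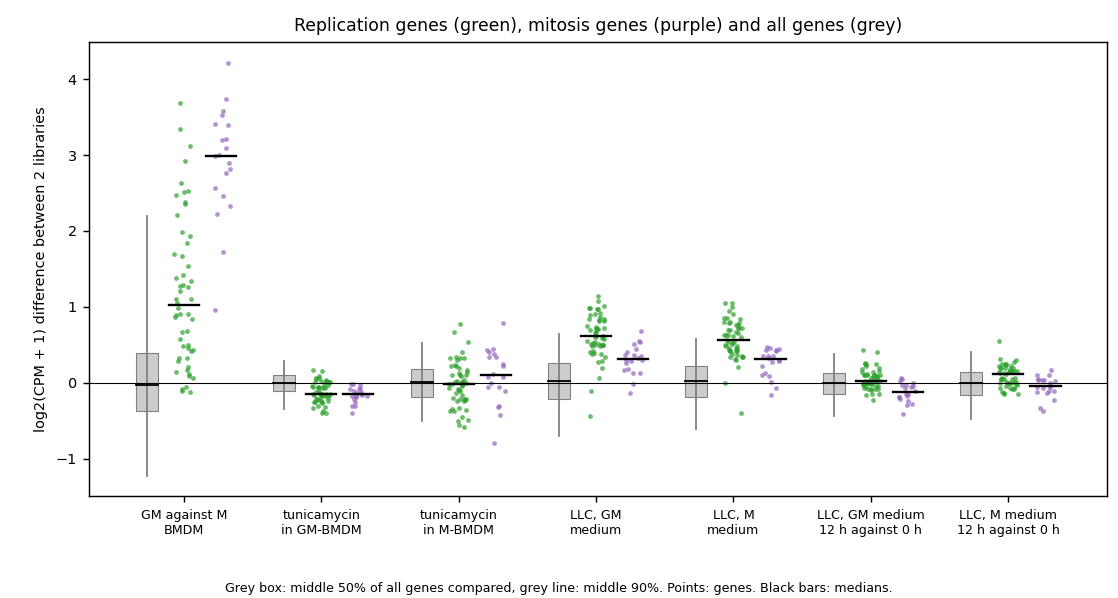
Differences in log2(CPM + 1) between 2 libraries in 7 comparisons, with all genes as a grey box (middle 50%) and line (middle 90%), replication genes as green and mitosis genes as purple points, and medians as black bars. Mitosis lies above replication between macrophage kinds (2.99 against 1.02 in untreated cells), and replication above mitosis in LLC cells with GM medium (0.61 against 0.32) and M medium (0.56 against 0.31).

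The same gene could be among the widest gaps in 1 of these comparisons and not pass in the other, as the plot of both fitted changes shows. Cdc7 was 2.36 higher in GM-BMDM than in M-BMDM on the log2 scale and did not pass in LLC cells. Conversely, Pole2, E2f1 and Orc2 rose by 1.20, 0.92 and 0.66 in LLC cells with medium and did not pass between macrophage kinds. Ccne2, Rrm2, Cdc6 and Orc1 were among the 7 widest gaps between macrophage kinds and among the 6 largest increases in LLC cells. Genes with and without the E2F letters in their windows overlapped in both comparisons: the median LLC log2 fold change was 0.82 over 18 genes with a match (Gins3 at -0.38 the lowest) and 0.59 over 26 without, and between macrophage kinds it was 0.93 with and 1.08 without a match, given as a description with no test. Of the genes whose windows are printed, Rrm2, without a match, had the largest gap between macrophage kinds and rose by 1.0 in LLC cells.

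**Figure D4:**
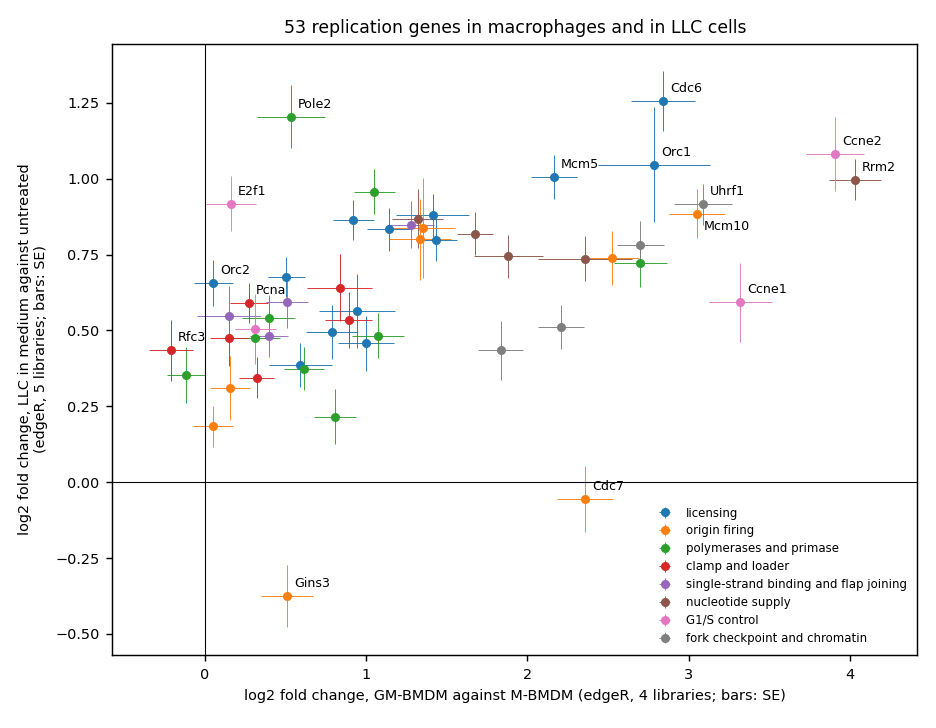
Fitted log2 fold change of each of 53 replication genes between GM-BMDM and M-BMDM (horizontal, 4 libraries) and between LLC cells in macrophage medium and untreated (vertical, 5 libraries), with SE bars and colours by role. Ccne2, Rrm2 and Cdc6 lie at the upper right, Pole2 and E2f1 at the upper left, and Cdc7 and Gins3 on or under the horizontal line at 0.

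Other genes of the same pathways, listed by role with earlier results of these data known, gave the following counts in LLC cells with medium, where 24.9% of all genes rose and 21.9% fell. Of 23 other replication factors that passed the minimum level 19 rose and none fell (median 0.53), among them Wdhd1, which links polymerase alpha to the helicase (0.91 ± 0.10), and the maintenance methyltransferase Dnmt1 (0.55 ± 0.06). Of 23 other nucleotide enzymes 16 rose and none fell (0.32), among them the purine enzyme Gart (0.89 ± 0.07). Of 23 cell cycle control genes 14 rose and 6 fell (0.27), and of 8 fork checkpoint genes 4 rose (0.26). The cyclin-dependent kinase inhibitors went apart: Cdkn1a, which encodes p21, stood at 7.64 CPM untreated and 17.02, 14.6, 22.9 and 17.3 CPM in the media (1.21 ± 0.17), and Cdkn1b, which encodes p27, at 189 CPM and 137, 154, 123 and 136 CPM (-0.46 ± 0.06). Tfdp2, a dimerization partner of E2F, fell by 0.76 on the log2 scale. Between macrophage kinds 13 of 23 replication factors, 9 of 22 nucleotide enzymes, 12 of 25 control genes and 3 of 8 checkpoint genes were higher in GM-BMDM, and 3, 4, 3 and 1 were lower, beside 25.4% and 25.0% of all genes. Ccnd2, a D-type cyclin, had the widest untreated gap of the 25 control genes. It stood at 1.53 and 2.25 CPM in M-BMDM and 78.0 and 46.4 CPM in GM-BMDM (4.98 ± 0.30). Samhd1, a dNTP-degrading enzyme, was lower in GM-BMDM, with 349 and 311 CPM in M-BMDM against 232 and 223 CPM (-0.54 ± 0.11).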

How the data were processed

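Total RNA from 9 single libraries was sequenced. The submitters' processing notes name cutadapt 1.15, HISAT2 and TopHat2 2.1.0 without their roles, and the counting tool, strand setting and build are not given in the sources used here. The deposited tables hold raw read counts per gene and FPKM, which were recomputed from the deposited counts and gene lengths to within 5.0e-07 (LLC) and 4.9e-06 (BMDM). The authors' gene coordinates for the LLC libraries equal GENCODE M21 (GRCm38) for all 54 replication genes. Those for the BMDM libraries were not compared. CPM used TMM sizes per table, with a mean of at least 1 CPM as filter. The 12 comparisons of 2 libraries used log2(CPM + 1) with a pseudocount of 1 CPM, computed here from the deposited counts, and CPM ratios with exact Clopper-Pearson 95% intervals. Additive fits used edgeR 4.0.16 (quasi-likelihood test, Benjamini-Hochberg over all genes, 0.05), with SE as the log2 fold change over the root of F, and DESeq2 1.42.0 as alternative, in R 4.3.3. For LLC, terms were medium, kind of medium and tunicamycin; for BMDM, kind and tunicamycin. Scripts were tested on simulated counts. Other scalings, pseudocounts, filters and a fit without terms were tried. Replicates were absent and no batch was labelled; nothing says whether libraries came from separate cultures. The 54 genes and the other lists were chosen with earlier results of these data known. Genes named with values in every library were those with the largest differences in each role and table, those that moved against their role, and functional pairs. The lymphocyte and erythroid marker lists summed to at most 8.27 and 1.95 CPM in any library.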

Additional observations from a re-analysis of the deposited data

Results flagged for a closer look

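Cdt1, which loads the helicase at origins, and the helicase subunit Mcm7 were opposite in the 2 kinds of macrophage after 4 h of tunicamycin, beyond counting error in each with TMM scaling. Cdt1 was 1.5-fold higher (1.31 to 1.72) in M-BMDM, with 9.07 CPM untreated and 13.6 CPM treated, and 1.12-fold lower (1.01 to 1.24) in GM-BMDM, with 17.8 and 15.9 CPM. The GM-BMDM difference minus the M-BMDM difference was -0.69 on the log2(CPM + 1) scale. Mcm7 was 1.75-fold higher (1.58 to 1.94) in M-BMDM, with 14.9 and 26.2 CPM, and 1.12-fold lower (1.05 to 1.19) in GM-BMDM, with 56.0 and 50.05 CPM, which gives -0.93. With total counts in place of TMM the GM-BMDM intervals were 0.968 to 1.20-fold lower for Cdt1, which includes no change, and 1.02 to 1.14-fold lower for Mcm7. With 1 library in each group the difference between the kinds was not tested.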

How the results depend on the processing

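No median or named 2-library difference of at least 1.5-fold changed sign in any alternative tried. The directions of single called genes were not compared across scalings and filters. The M-BMDM tunicamycin median near 0 became 0.08 with total counts. Of the medians and counts 398 values stayed close to the main one while 22 moved (a count by over 1.5 times, or a median out of the genes' median counting interval). With a pseudocount of 5 CPM the median difference between macrophage kinds was 0.71 (untreated) and 0.71 (tunicamycin), and with total counts the latter was 0.82. At 5 CPM the genes at least 2-fold higher in LLC cells numbered 1 (GM medium), 0 (M medium) and 3 (GM medium after tunicamycin), and those 1.5-fold higher in M-BMDM with tunicamycin 1. At 0.1 CPM 4 were 2-fold higher with M medium, and 4 were 1.5-fold and 1 was 2-fold lower in M-BMDM with tunicamycin, where DESeq2 size factors gave 1 gene 1.5-fold lower. The choice of scaling moved the median of all genes by up to 0.12 in the macrophage comparisons. In LLC cells 29 to 46 genes rose when 1 medium at a time was left out of the fit without terms (30 without GM medium, and 30 without GM medium after tunicamycin). Gins3 was the only one that fell, and DESeq2, the fit without terms and each left-out medium called 0 lower. For tunicamycin of the medium DESeq2 called 1 higher, and total counts 1 lower. The cause was not tested, beyond fewer samples in the last fits. No paired analysis was possible because no group has replicates to pair by number; the additive fits compare within kinds. Genes near 1 CPM in M-BMDM have wide counting intervals, as for Orc1 between untreated kinds (4.92-fold, 3.41 to 7.28).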
